A study of Bos taurus with 39 samples.

Results

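Oocytes whose gap junctions to the cumulus were blocked were compared with oocytes that had no cumulus contact but shared medium with intact complexes, at 1, 6 and 22 h of maturation. The members were the libraries labelled CBX and Coculture, 18 of the 39 miRNA libraries of the series, with 3 libraries per group and time paired by replicate number into 9 pairs. The rest of the series, 12 control and 9 denuded oocyte (DO) libraries, enters the levels set beside these 18, and its 18 libraries at 1, 6 and 22 h also enter the scaling of CPM values and 1 alternative fit over 36 libraries. In the CBX group, bovine oocytes stayed in their cumulus-oocyte complexes (COCs) through maturation in medium with carbenoxolone, a chemical blocker of gap junctions, and the cumulus was stripped off by vortexing in hyaluronidase after maturation. In the co-culture group (cocult), oocytes were stripped before maturation and kept apart from the COCs in the same well by a porous insert, without carbenoxolone, and their zona was removed with pronase before lysis. Control oocytes matured in COCs without the blocker, and DO matured without cumulus and without COCs in the well. All groups started from abattoir ovaries, each library pooled oocytes of more than 1 maturation run, and the methods describe picking oocytes with a visible polar body. The 1 h, 6 h and 22 h libraries came from different oocytes. The drug, the cumulus contact, the moment of denuding and the zona treatment all differed between CBX and co-culture, so their parts in any difference cannot be told apart.

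Gap junctions are channels that join the cytoplasm of the cumulus cells to that of the oocyte through thin projections that cross the zona pellucida. They carry ions, metabolites and second messengers such as cyclic nucleotides, which help to hold the oocyte in meiotic arrest. miRNAs are short RNAs that pair with target transcripts, mostly through the seed at bases 2 to 8, and lower their stability or translation. The oocyte makes little new RNA while it matures, and cumulus cells are known to pass small molecules and some RNA to it through these projections. The comparison asks which miRNAs in the oocyte differed between a blocked cumulus and a cumulus present only in the shared medium, and whether a difference kept its direction over maturation.

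The total count per library was 18796 to 146599 in the CBX group and 54069 to 165238 in cocult. The lowest total was CBX at 22 h, replicate 2, where 3 counts are worth 160 CPM (read counts scaled to a common library size), against 18.2 to 59.9 CPM in the other 17 libraries. Predicted miRNAs, entries that the study proposed from its own reads, took 53.1% to 59.8% of the counts in CBX and 55.7% to 62.2% in cocult. The total was higher in cocult in 5 of 9 pairs (exact two-sided sign-flip permutation test, p = 0.422), as was the share of predicted miRNAs (p = 0.43). The number of miRNAs expected at a common total of 18796 counts was 760 ± 16.6 in CBX and 753 ± 15.6 in cocult (SD over 9 libraries, same exact permutation test, p = 0.383). Adjusted over these 3 measures all p-values were 0.43, and the smallest that 9 pairs allow is 0.00391. CPM values below were scaled by TMM over the 36 libraries of the 4 groups at 1, 6 and 22 h. Fold changes are log2 values of cocult over CBX with 1 standard error, from edgeR's quasi-likelihood fit.

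The predicted miRNAs are known mainly by their letters, and those on which the results turn are shown first, 5′ to 3′, with the seed (bases 2 to 8) in capitals. The first set is shown because the average log2 fold changes of its members over the times were below 0, none of them called as different.
predicted miR-485: gGGGAUGUagcucagugg
predicted miR-484: gGGGGUGUagcucagugg
predicted miR-457: uCCCCGGCaccuccacca
predicted miR-824: gUCAGGAUggccgaguggucuaagg
predicted miR-364: gGGCGCGAagcggggcug
The second set is shown because the values of its members stood out at 1 time point or lay on the other side of 0, again with none called at the settings used throughout.
predicted miR-79: uGCAAGAUuuuaagcaugaccuu
predicted miR-162: uCCAUCUGgacggcuuggcauuggg
predicted miR-895: gCGCCCCCggggccgcgg
predicted miR-906: gAGGGAUCccugccuagcggg

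The study placed predicted miR-485 at chr23:30170729-30170841, strand +, predicted miR-484 at chr23:30149569-30149678, strand +, predicted miR-457 at chr22:58542346-58542453, strand + and predicted miR-824 at chr7:42660374-42660486, strand + of the bovine build ARS-UCD1.2. Predicted miR-364 lay at chr19:56554303-56554410, strand −, predicted miR-79 at chr11:97182562-97182675, strand −, predicted miR-162 at chr13:76526680-76526794, strand −, predicted miR-895 at chr9:93405029-93405136, strand +, and predicted miR-906 on the mitochondrial genome at chrM:16169-16279, strand −. Each span is that of the predicted precursor, and the genes around it were not analysed here. The 18 predicted miRNAs with a sequence had 18 different seeds, so none of them shared one. The study's prediction table pairs the seed of predicted miR-79 with mml-miR-31-5p, an entry of another species, and the bovine miR-31 sequence was not compared.

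Predicted miR-484 and predicted miR-485 have 18 bases each and differ by 1 base, G5A, counted from 1 at the 5′ end with the base of predicted miR-484 first. Both begin like the 5′ end of an alanine tRNA, and predicted miR-457 ends in the letters CCA, which in mature tRNAs close the 3′ end. Read in opposite directions, bases 1 to 7 of predicted miR-484 can pair with bases 14 to 8 of predicted miR-457 at 7 of 7 positions, 6 as Watson-Crick pairs and 1 as a G-U wobble. For predicted miR-485 the same stretch pairs at 6 of 7 positions. Predicted miR-824 begins like the 5′ end of a leucine tRNA. These likenesses are background from the letters, and no tRNA reference was searched. The 3 entries predicted miR-484, predicted miR-486 and predicted miR-504 held identical counts in every library and are named once.

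A single miRNA was called as different when the 3 times were averaged. Predicted miR-623 was lower in cocult than in CBX, with an average log2 fold change of −2.62 ± 0.43 and an adjusted p of 0.0224 (edgeR quasi-likelihood test, Benjamini-Hochberg over 545 miRNAs). It was lower in 8 of 9 pairs, and 13 of the 545 miRNAs, itself included, were higher in cocult in only 1 pair. In the average, predicted miR-623 passed the low-count filter only through CBX libraries, the group where it was high, so the call describes these counts. The called share was 0.183% of the miRNAs tested for lower and 0% for higher in cocult, where a call needs an adjusted p under 0.05 and a log2 fold change at or beyond 1 in either direction.

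At 1 h, predicted miR-623 measured 186, 148 and 118 CPM in the CBX libraries and 38.8, 20.1 and 0 CPM in cocult, without overlap. At 6 h, it measured 139.9, 53.1 and 16.6 CPM in CBX and 12.4, 17.6 and 0 CPM in cocult. At 22 h, it measured 112, 49.9 and 70.4 CPM in CBX and 6.69, 68.6 and 14.5 CPM in cocult. The groups overlapped at 6 and 22 h, and the pair that went the other way was replicate 2 at 22 h, which holds the library with the lowest total. The counts behind these levels were small. At 1 h they were 22, 8 and 12 in CBX and 3, 2 and 0 in cocult, and over all times they summed to 83 in CBX and 14 in cocult. The low-count filter kept predicted miR-623 at 1 h and in the average, and both times the libraries at or above its cutoff were 3 of CBX and 0 of cocult. It was thus tested only through the group where it was high, and its call is given as a description of these counts.

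In the libraries of cumulus-enclosed control oocytes, predicted miR-623 measured 143, 110.4 and 163 CPM at 1 h, 51.9, 20.1 and 139 at 6 h and 32.4, 69.8 and 83.1 at 22 h. In DO it measured 34.6, 120.4 and 0 CPM at 1 h, 0, 0 and 13.6 at 6 h and 0, 17.6 and 31.8 at 22 h. The mean levels at each time were higher in both groups that matured inside a cumulus, with or without the blocker, than in both groups stripped beforehand, and 1 DO library at 1 h reached the control levels. The order of the 4 groups was not tested. The call for predicted miR-623 was lost without replicate 3 (−2.47, adjusted p = 0.282) and without the block for pairs (−2.45, adjusted p = 0.0708). It did not pass the filter, and so was not tested, without replicate 1, without the 1 h or the 6 h libraries, with known and predicted miRNAs fitted apart, and with a mean of at least 20 counts. Without the pair of the library with the lowest total it remained, at −2.97 and an adjusted p of 0.00408.

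**Figure D1:**
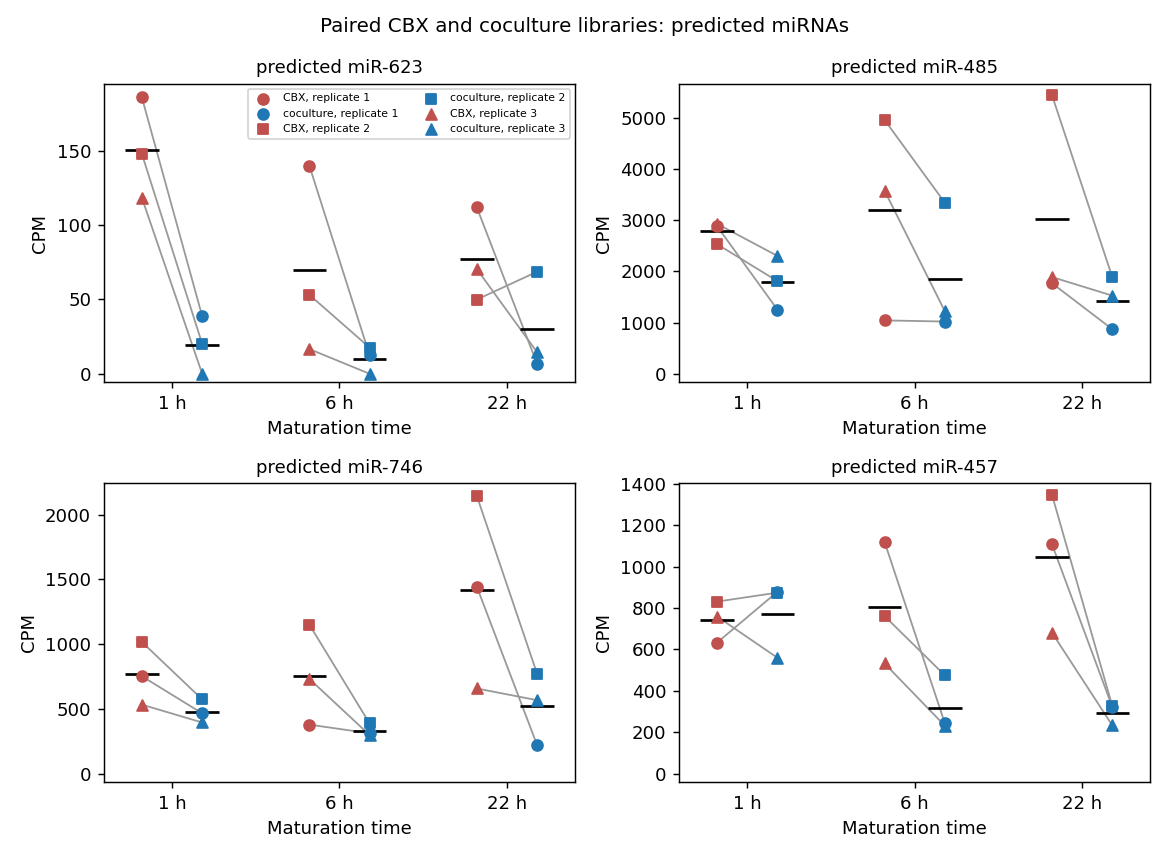
CPM of predicted miR-623, predicted miR-485, predicted miR-746 and predicted miR-457 in each CBX (red) and co-culture (blue) library at 1, 6 and 22 h, with a marker for each replicate number, a grey line for each pair and a black bar for the mean of 3 libraries. The lines of predicted miR-485 and predicted miR-746 slope down in 9 of 9 pairs, those of predicted miR-623 in 8 of 9 and those of predicted miR-457 in 6 of 6 pairs at 6 and 22 h but 1 of 3 at 1 h.

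**Figure D2:**
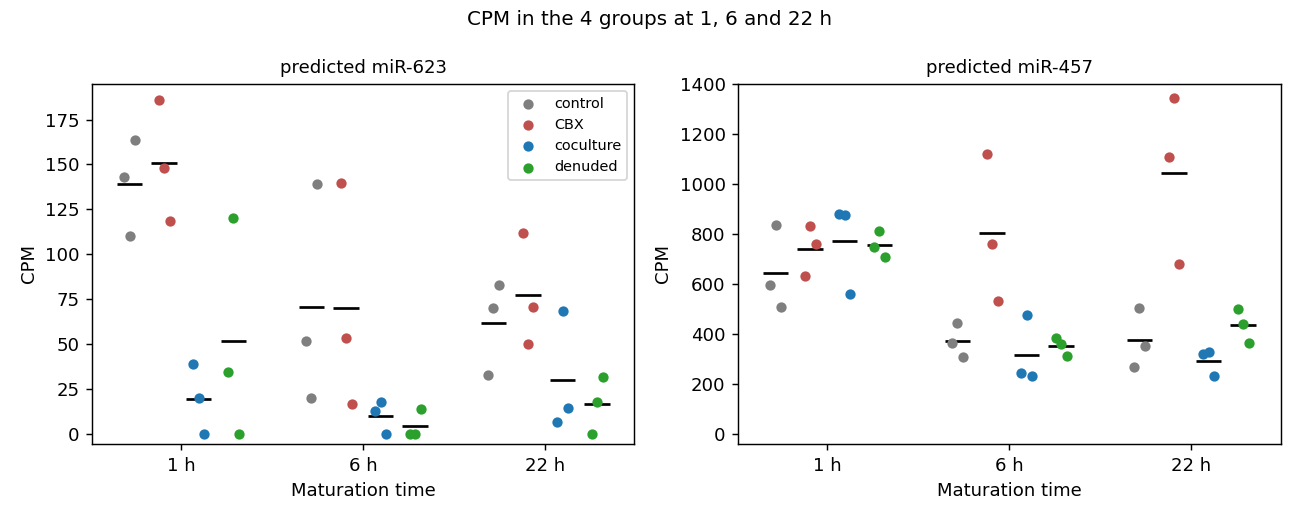
CPM of predicted miR-623 (left) and predicted miR-457 (right) in the control, CBX, co-culture and denuded libraries at 1, 6 and 22 h, 1 point per library, with a black bar for the mean of 3. Predicted miR-457 is highest in the CBX group at 6 and 22 h, with means of 804 and 1045 CPM.

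Predicted miR-485 and predicted miR-746 were lower in cocult in all 9 pairs. These 2 were 0.367% of the 545 miRNAs, and 0% were higher in 9 of 9 pairs. Of the 545, 13 were higher in cocult in only 1 of 9 pairs and 16 in 8 of 9, with identical entries counted separately. None of these numbers was tested against random signs. Predicted miR-485, which resembles an alanine tRNA end, measured 2879, 2530.4 and 2927 CPM in CBX and 1253, 1809 and 2302 in cocult at 1 h. At 6 h, predicted miR-485 measured 1042, 4955 and 3574 CPM in CBX and 1020.0, 3339 and 1221 in cocult. At 22 h, predicted miR-485 measured 1768, 5437 and 1889 CPM in CBX and 870.2, 1886 and 1525 in cocult. The groups did not overlap at 1 h and overlapped at the later times, and replicate 1 at 6 h was nearly level. The average log2 fold change was −0.79 ± 0.17 (adjusted p = 0.118), short of the threshold. The log2 fold changes at 1, 6 and 22 h were −0.72 ± 0.23, −0.69 ± 0.30 and −0.997 ± 0.31.

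Predicted miR-746 measured 751, 1016 and 532 CPM in CBX and 465, 573 and 394 in cocult at 1 h. At 6 h, predicted miR-746 measured 378, 1150.3 and 731 CPM in CBX and 311, 387 and 297 in cocult. At 22 h it measured 1444, 2145 and 657 CPM in CBX and 221, 771 and 567 in cocult. The pairs moved together although the levels of the groups overlapped at each time. The log2 fold changes of predicted miR-746 were −0.70 ± 0.27, −0.997 ± 0.31 and −1.53 ± 0.50, and their average was −1.06 ± 0.24 (adjusted p = 0.118). With DESeq2 its average passed, at −1.08 with an adjusted p of 0.00468. The average passed in 4 of 19 alternative fits, DESeq2 included, and the adjusted p of the 19 ran up to 0.628.

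Predicted miR-457, which ends in CCA, was level between the groups at 1 h and had lower values in cocult at 6 and 22 h. It measured 633, 831 and 759 CPM in CBX and 879, 874 and 559.5 in cocult at 1 h. At 6 h, predicted miR-457 measured 1119, 761 and 532 CPM in CBX and 243, 475 and 231 in cocult. At 22 h, it measured 1108, 1347 and 680.3 CPM in CBX and 321, 326 and 232 in cocult. The groups overlapped at 1 h and did not overlap at 6 or 22 h. The log2 fold changes of predicted miR-457 were 0.00 ± 0.28 at 1 h, −1.43 ± 0.35 at 6 h (adjusted p = 0.838) and −1.83 ± 0.29 at 22 h (adjusted p = 0.268). At 6 and 22 h the control libraries held 363, 443 and 309 and 268, 503 and 353 CPM and the DO libraries 385, 361 and 313 and 499, 439 and 365 CPM, so that CBX was the group with the highest mean and cocult lay near the other groups. That order was not tested. The average of predicted miR-457 over the 3 times was −1.02 ± 0.28 (adjusted p = 0.345). Over 6 and 22 h alone it was −1.62 (adjusted p = 0.0134), and with DESeq2 over the 3 times −1.06 (adjusted p = 0.0231). The average passed in 3 of 19 alternative fits, these included, and the adjusted p of the 19 ran up to 0.925.

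Predicted miR-824, the leucine tRNA-like entry, was lower in cocult in 8 of 9 pairs. It measured 675, 1588 and 689.9 CPM in CBX and 620.2, 844 and 966 in cocult at 1 h, and 364, 2212 and 1396 against 323, 756 and 511 at 6 h. At 22 h, predicted miR-824 measured 2663, 1945 and 786 CPM in CBX and 375, 1526 and 755 in cocult. The groups overlapped at each time, and its average log2 fold change was −0.79 ± 0.29 (adjusted p = 0.54).

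Predicted miR-484, 1 base away from predicted miR-485, was lower in 8 of 9 pairs, with an average of −0.51 ± 0.18 (adjusted p = 0.484). At 22 h, predicted miR-484 measured 302, 1297 and 364 CPM in CBX and 187, 600.0 and 363 in cocult, and the groups overlapped. Predicted miR-364 was lower in 6 of 9 pairs, with an average of −1.39 ± 0.40 (adjusted p = 0.355). At 22 h, predicted miR-364 measured 392, 648 and 93.8 CPM in CBX and 40.2, 120.0 and 43.6 in cocult, with overlap, and its control libraries held 32.4, 182 and 20.8 CPM. Other predicted miRNAs among the 8 lowest p-values for lower values were predicted miR-134 at −0.66 ± 0.22 and predicted miR-431 at −1.10 ± 0.36, both with an adjusted p of 0.484. Predicted miR-408, at −3.10 ± 0.91, was listed at 0 in most libraries and rested on 3 CBX libraries with 259, 196 and 265 CPM.

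The leading values higher in cocult lay between 0.35 and 0.79 on the log2 scale. In the average over the times, 12 miRNAs were higher and 34 lower in cocult at an unadjusted p under 0.05, of 545 tested, and none of the 12 was called. Here and at each time, entries with identical counts were counted separately, and the 545 held 449 distinct count profiles. The 12 include the 5 identical entries of predicted miR-925, and the 34 include the 3 of predicted miR-484. With library sizes taken from the deduplicated reads, which moved the median miRNA by 0.10 at 1 h, −0.06 at 6 h, 0.60 at 22 h and 0.19 in the average, the split of higher and lower miRNAs was 20 higher and 11 lower. Predicted miR-725 led the higher miRNAs with 0.60 ± 0.14 (adjusted p = 0.126) and was higher in 8 of 9 pairs. At 1 h, predicted miR-725 measured 312, 388 and 444 CPM in CBX and 529.8, 724 and 547 in cocult, without overlap. At 6 h, it measured 455, 478 and 598 against 634, 984 and 841 CPM, again without overlap, and at 22 h 380.5, 449 and 328 against 582, 394 and 596 CPM, with overlap. Its log2 fold changes stood close together at the 3 times, at 0.60 ± 0.29, 0.66 ± 0.22 and 0.48 ± 0.33.

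Predicted miR-619 followed with 0.59 ± 0.19 (adjusted p = 0.484, higher in 7 of 9 pairs), and predicted miR-895 with 0.79 ± 0.29 (adjusted p = 0.54, higher in 7 of 9 pairs). Predicted miR-895 measured 22.4, 49.9 and 70.4 CPM in CBX and 60.2, 497 and 392 in cocult at 22 h, where its counts did not pass the filter. Its control libraries at 22 h held 187, 489 and 488 CPM, so the low group at that time was CBX. The known miR-29b, which targets collagen and DNA methyltransferase transcripts, was at 0.53 ± 0.22 (adjusted p = 0.545) and higher in 8 of 9 pairs. The remaining leading entries, predicted miR-572, predicted miR-925, predicted miR-648 and predicted miR-792, had averages of 0.71, 0.59, 0.44 and 0.35. Predicted miR-925 stands for 5 entries with identical counts.

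**Figure D3:**
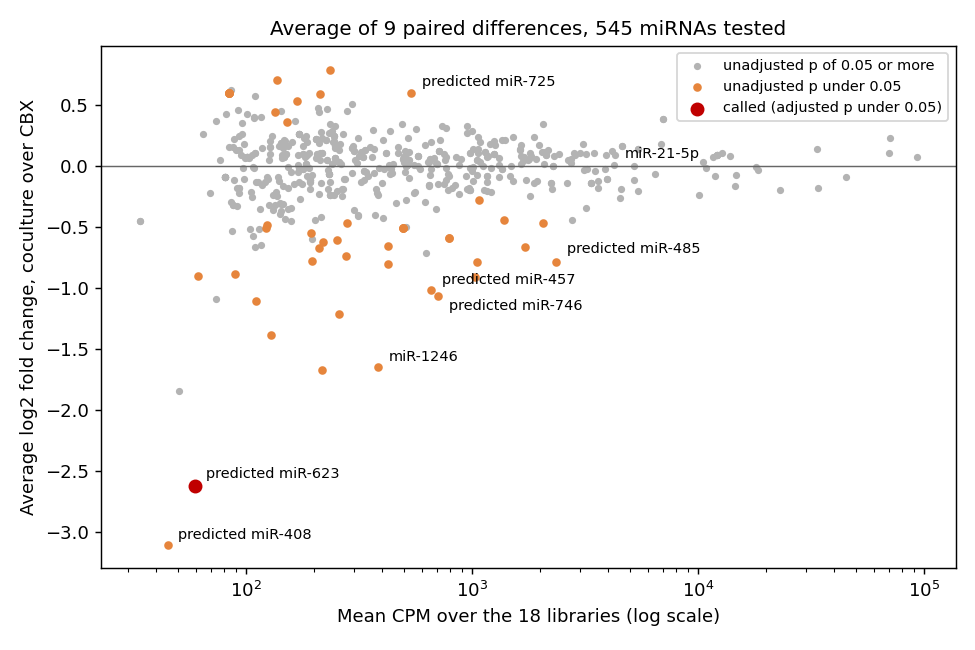
Average log2 fold change of co-culture over CBX against mean CPM over the 18 libraries (log scale), 1 point per miRNA tested (545), with unadjusted p under 0.05 in orange and the called predicted miR-623 in red. Negative values are lower in co-culture, the orange points hold 12 higher and 34 lower miRNAs, and the abundant miRNAs on the right lie close to 0. Entries with identical counts are counted separately and their points coincide.

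At 1 h, 486 miRNAs passed the filter and 0% were called. The edgeR test gave an unadjusted p under 0.05 for 6 higher and 12 lower miRNAs, and DESeq2 called 1. That 1 was predicted miR-79, whose seed the study's prediction table pairs with mml-miR-31-5p. The study's own edgeR analysis, over fewer miRNAs, also called predicted miR-79 at 1 h, as its only call between these groups. Its values in CBX at 1 h were 1823, 1755 and 2799 CPM, each above the 258, 392 and 1234 CPM of the cocult libraries. Its log2 fold changes were −2.02 ± 0.32 at 1 h, 0.01 ± 0.23 at 6 h and −0.70 ± 0.57 at 22 h, and in replicates 1 and 3 at 22 h CBX was again the higher of the pair. Without replicate 2 at 22 h, predicted miR-79 was called at that time (−1.39, adjusted p = 0.000128, on 2 pairs). At 6 h, predicted miR-79 measured 735, 1186 and 814 CPM in CBX and 976, 844 and 825 in cocult, with overlap, and at 22 h 1130.2, 299 and 1489.7 against 395, 977 and 610.2. The known bovine miR-31, whose seed was not compared with that of predicted miR-79, had −0.36 ± 0.20 at 1 h (adjusted p = 0.999). The control libraries at 1 h spread over 859, 284 and 2534 CPM for predicted miR-79, a spread nearly as wide as that of both groups together.

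miR-155, known from immune activation and from cumulus and granulosa cells, measured 1232, 277 and 444 CPM in CBX and 413, 201 and 63.6 in cocult at 1 h. It was lower in cocult in 3 of 3 pairs, with overlap between the groups (−1.56 ± 0.42, adjusted p = 0.712). At 6 h, miR-155 measured 818, 1062 and 3407 CPM in CBX and 1661, 422 and 2969 in cocult, and at 22 h 2003, 5636 and 3625 against 2189, 1629 and 2964 CPM. Predicted miR-668 was lower in cocult at 1 h as well (−0.94 ± 0.27, adjusted p = 0.871). Among the higher values at 1 h, predicted miR-572 measured 67.5, 73.9 and 78.8 CPM in CBX and 168, 171 and 216 in cocult, without overlap (1.28 ± 0.34, adjusted p = 0.712). The cutoff of the low-count filter at 1 h was 114.1 CPM, above each CBX value and below each cocult value of predicted miR-572. It was thus tested at 1 h only through the group where it was high, and these values are a description. Further higher values at 1 h were those of predicted miR-105 at 1.36 ± 0.43, predicted miR-111 at 0.84 ± 0.31, predicted miR-399 at 0.84 ± 0.36 and miR-128 at 0.56 ± 0.23.

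At 6 h, 417 miRNAs were tested and 0% were called. An unadjusted p under 0.05 was found for 10 higher and 11 lower miRNAs, the smallest adjusted p was 0.838, and DESeq2 called 0. All 10 of the higher ones and 8 of the 11 lower ones were predicted entries, as were 309 of the 417 miRNAs tested. Predicted miR-441 measured 2413, 2531 and 2559.7 CPM in CBX and 3769, 3761 and 3926 in cocult, narrow groups that did not overlap (0.62 ± 0.13, adjusted p = 0.838), and its values at 1 and 22 h were −0.30 ± 0.19 and −0.04 ± 0.23. Predicted miR-631 likewise did not overlap at 6 h, with 189, 195 and 216 CPM in CBX and 311, 334 and 346 in cocult (0.72 ± 0.23). Predicted miR-496 was at 1.16 ± 0.36 and predicted miR-934 at 0.74 ± 0.21. Lower in cocult, beside predicted miR-457, predicted miR-746 and predicted miR-824, predicted miR-519 measured 553, 496 and 748 CPM in CBX and 317, 246 and 363 in cocult, without overlap (−0.93 ± 0.20, adjusted p = 0.838). Predicted miR-765 was at −1.37 ± 0.38 at 6 h, against −0.17 ± 0.32 at 1 h and −0.27 ± 0.39 at 22 h.

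At 22 h, 447 miRNAs were tested and 0% were called, while an unadjusted p under 0.05 was found for 8 higher and 20 lower miRNAs (10 and 4 with the deduplicated reads). DESeq2 called 4, all lower in cocult, which were miR-206, miR-1246, miR-11976 and predicted miR-457. Of these, miR-206, miR-1246 and miR-11976 passed the low-count filter through the CBX libraries, as given with their values. Without replicate 2, whose CBX library had the lowest total of counts, 14 miRNAs were called on the 2 remaining pairs, 13 of them lower in cocult, and predicted miR-746, predicted miR-824 and predicted miR-79 were among them. miR-206, a skeletal muscle miRNA, measured 1018, 199.5 and 1466 CPM in CBX and 53.6, 103 and 58.1 in cocult at 22 h, without overlap (−3.68 ± 0.64, adjusted p = 0.268). The cutoff of the low-count filter at 22 h was 127.1 CPM, below each CBX value and above each cocult value of miR-206. Both edgeR and DESeq2 thus tested miR-206 only through the group where it was high, and its values at 22 h are a description. At 6 h, miR-206 measured 49.0, 53.1 and 199 CPM in CBX and 180.4, 3181 and 82.5 in cocult (2.52 ± 1.19), and at 1 h 16.9, 222 and 877 against 25.8, 70.4 and 1297. The control libraries at 22 h held 40.5, 2402 and 10.4 CPM and DO 125, 281 and 906. Single libraries were high in each of the 4 groups, and within the control group at 6 h miR-206 spread over 156, 12275 and 0 CPM.

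miR-1246, known as a fragment of the U2 small nuclear RNA, measured 1824, 3092 and 152 CPM in CBX and 40.2, 240.0 and 72.6 in cocult at 22 h, with overlap (−3.89 ± 0.75, adjusted p = 0.31). At 1 h, miR-1246 measured 84.4, 55.4 and 69.0 CPM in CBX and 90.4, 131 and 89.0 in cocult, and at 6 h 245, 142 and 199 against 49.8, 176 and 181. The high values in CBX were those at 22 h, and 1 DO library at 22 h also held 2371 CPM. miR-11976 measured 593, 998 and 211 CPM in CBX and 26.8, 360.0 and 72.6 in cocult at 22 h (−2.48 ± 0.60, adjusted p = 0.569) and was lower in 8 of 9 pairs over the times. For both miR-1246 and miR-11976, each CBX value at 22 h lay above the filter cutoff of 127.1 CPM, and in cocult only replicate 2 did. Both thus passed the filter through the group where they were high, and their values at 22 h are a description. miR-184, a miRNA best known from the cornea and lens, measured 1981, 2644 and 997 CPM in CBX and 1071, 1097 and 465 in cocult, with overlap (−1.12 ± 0.23, adjusted p = 0.324). At 22 h the replicate 3 CBX library was the lowest for miR-1246, miR-11976 and miR-184 and the highest for miR-206.

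**Figure D4:**
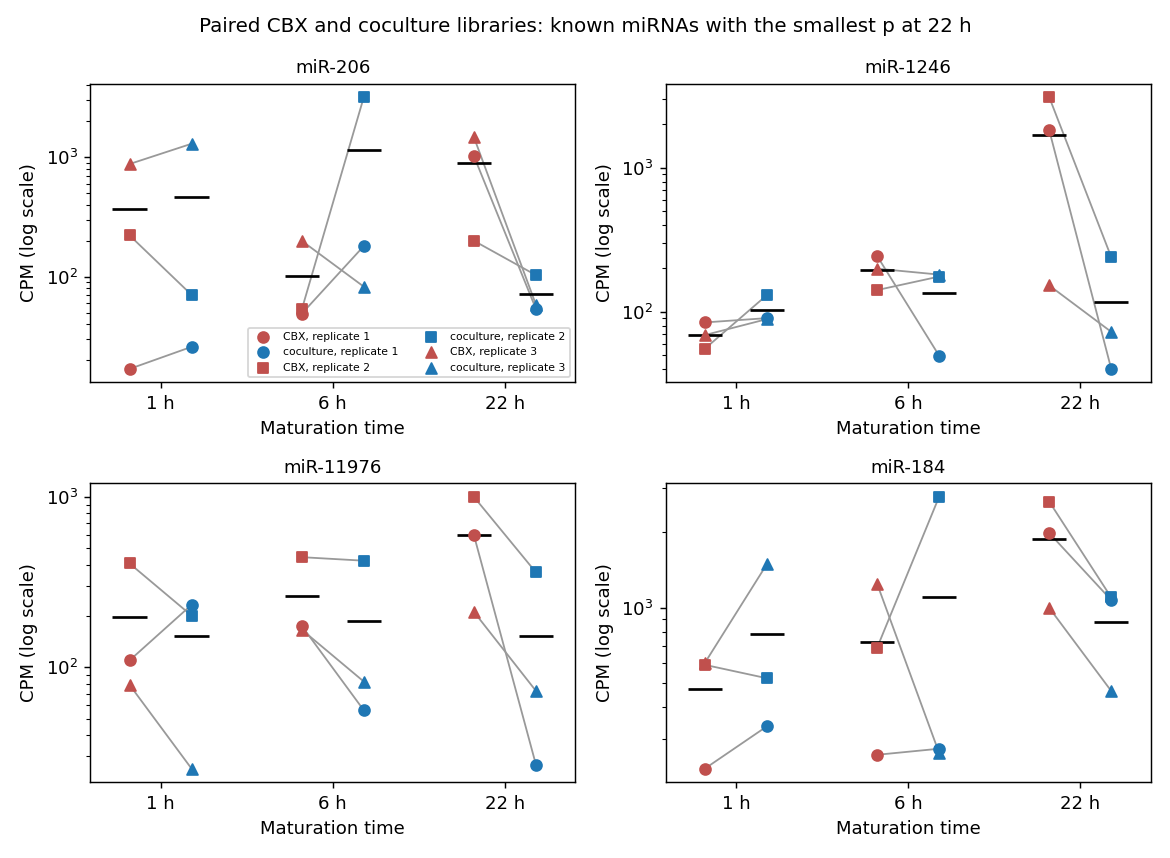
CPM (log scale) of miR-206, miR-1246, miR-11976 and miR-184 in each CBX (red) and co-culture (blue) library at 1, 6 and 22 h, with a marker for each replicate number, a grey line for each pair and a black bar for the mean. At 22 h all 3 lines slope down in each panel, whereas at 6 h the lines of miR-206, miR-1246 and miR-184 point both ways.

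Predicted miR-162, on chromosome 13, measured 7150.4, 7731 and 6111 CPM in CBX and 4110.1, 4835 and 4576 in cocult at 22 h, without overlap (−0.68 ± 0.18, adjusted p = 0.622). Its values at 1 and 6 h were −0.08 ± 0.22 and −0.07 ± 0.16. Higher in cocult at 22 h, the mitochondrial predicted miR-906 measured 548, 199.5 and 516 CPM in CBX and 1044, 874 and 973 in cocult, without overlap (1.13 ± 0.31, adjusted p = 0.622). The control libraries held 1403, 1718 and 2430.4 CPM of predicted miR-906 and DO 789.5, 509 and 699. miR-503-5p, of the cluster of miR-424 and miR-503 expressed in granulosa cells, measured 749.7, 1097 and 1032 CPM in CBX and 1466, 2366 and 1467 in cocult, without overlap (0.81 ± 0.23, adjusted p = 0.622). Predicted miR-807 was at 0.58 ± 0.19, predicted miR-619 at 1.01 ± 0.33 and miR-301a at 1.31 ± 0.46, with 0 CPM of miR-301a in the CBX library with the lowest total.

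Most miRNAs did not keep 1 direction over maturation. Of 406 miRNAs tested at all 3 times, 43 (10.6%) were higher and 56 (13.8%) lower in cocult at 1, 6 and 22 h. Whether these shares exceed those of random signs was not tested. The signs depended on the scaling, since with library sizes from the deduplicated reads the numbers were 87 higher and 20 lower, and with RLE size factors 22 and 69. Across these 406 miRNAs the log2 fold changes at 1 and 6 h had a Pearson r of 0.02, those at 1 and 22 h 0.12 and those at 6 and 22 h 0.02. The miRNAs were measured in the same libraries and are not independent, and the times share no library. Predicted miR-485, predicted miR-746, predicted miR-824, predicted miR-484 and miR-11976 had negative values at each time, and predicted miR-725, predicted miR-619 and miR-29b positive ones.

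Whether the difference itself changed with time was tested by the interaction of group and time. No miRNA was called (0% of 545), 28 had an unadjusted p under 0.05, the smallest adjusted p was 0.449, and DESeq2 called 0. The 3 smallest p-values belonged to miR-1246, predicted miR-457 and miR-206. The log2 fold changes of miR-206 spanned a range of 6.15, those of miR-1246 4.45 and those of predicted miR-457 1.85. The test did not show a change with time for predicted miR-79 (adjusted p = 0.769).

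**Figure D5:**
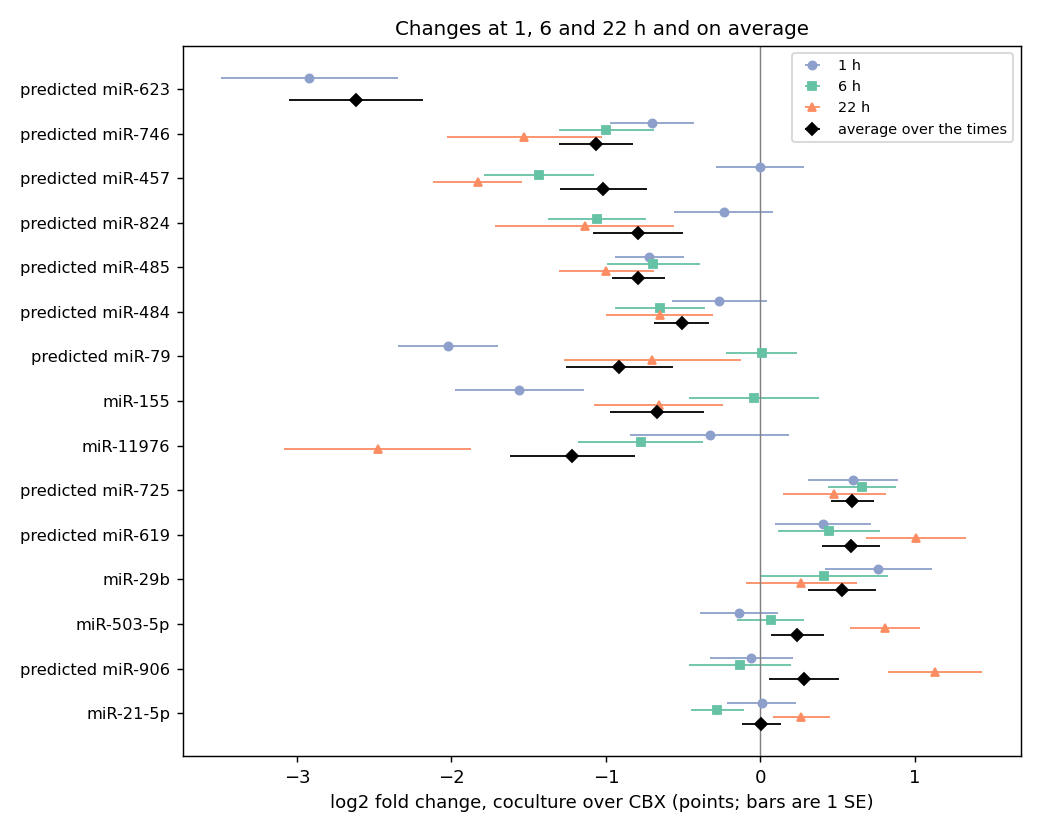
Log2 fold change of co-culture over CBX at 1 h (circles), 6 h (squares) and 22 h (triangles) and on average (diamonds) for 15 named miRNAs, with bars of 1 standard error. A time is missing where the miRNA did not pass the filter, the 4 points of predicted miR-485, predicted miR-725 and miR-29b lie on 1 side of 0, and those of predicted miR-457 and predicted miR-79 move apart between times.

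The conserved families were described by all their members. No family member was called in either direction at any time or on average. The let-7 family, which promotes differentiation and restrains growth genes, had 8 of its 10 members tested at each time. All 8 had negative values at 1 h and at 22 h, with medians of −0.23 and −0.23 beside −0.01 and −0.01 over all miRNAs tested, and 5 of 8 were negative at 6 h (median −0.03). With library sizes from the deduplicated reads, 6 of 8 were negative at 1 h and 3 of 8 at 22 h (medians −0.13 and 0.32, beside 0.08 and 0.57 over all miRNAs). let-7c, at −0.89 ± 0.28, had the only unadjusted p under 0.05 among the let-7 members (adjusted p = 0.671). It measured 3379, 8679 and 3531 CPM in CBX and 2155, 3120.2 and 2601 in cocult at 22 h, and let-7b measured 1992, 6833 and 3460.4 against 1232, 1560.1 and 3051 CPM. The summed let-7 level was 40959 to 83447 CPM in CBX libraries and 43436 to 69942 in cocult.

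At 22 h other families had positive medians. The miR-148, miR-152 and miR-200 families had 6 of 6 tested members positive with a median of 0.33, the miR-15 and miR-16 family 6 of 6 with 0.34, the miR-30 family 5 of 5 with 0.49 and the miR-17-92 and miR-106b-25 clusters 6 of 9 with 0.41. The miR-26 and miR-29 families had 3 of 3 with 0.22, and the miR-23, miR-24 and miR-27 group 3 of 4 with 0.33. The median over known miRNAs at 22 h was 0.18 and over predicted miRNAs −0.03, so the known miRNAs together lay above the predicted ones. With RLE size factors 5 of 6 members of the miR-148, miR-152 and miR-200 families were positive. No family median named here changed its sign with RLE or DESeq2. With the deduplicated reads these medians were 0.84 to 1.16, beside 0.57 over all miRNAs, which moved up together. That scaling was thus no check of the sign of these families. The CBX library with the lowest total was low in several of these, with 48432 CPM of miR-16b against 60180.0 and 75448 in the other CBX libraries. miR-30e-5p was the member of the miR-30 family with an unadjusted p under 0.05 at 22 h (0.62 ± 0.24, adjusted p = 0.717), and miR-92b that of the clusters in the average (−0.89 ± 0.39, adjusted p = 0.576). At 6 h the miR-148, miR-152 and miR-200 families had the opposite sign, with 6 of 6 negative and a median of −0.24, among them miR-148a (−0.34 ± 0.13, adjusted p = 0.838) and miR-200a (−0.77 ± 0.28, adjusted p = 0.838). The miR-10, miR-99, miR-100 and miR-125 group had a median of −0.05 in the average over 6 members, beside 0.02 for all miRNAs, and 0.15 beside 0.21 with the deduplicated reads. In the ruminant miR-2284 and miR-2285 family, 2 of 148 entries were tested, miR-2284x at 0.01 ± 0.11 and miR-2285bf at 0.13 ± 0.18, and 98 had no count in the 18 libraries.

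Markers of other cell types were measured because the CBX oocytes had carried a cumulus until the end of maturation. Of 28 miRNAs linked to cumulus and granulosa cells, 15 were tested in the average, with 7 positive and 8 negative, a median of −0.07 and none called (10 positive and a median of 0.12 with the deduplicated reads). Their summed level was 12246 to 26946 CPM in CBX libraries and 10739 to 21513 in cocult, overlapping ranges, and the sum was higher in cocult in 1 of 3 pairs at 1 h, in 1 of 3 at 6 h and in 3 of 3 at 22 h. In pooled oocytes, fewer attached cells and less RNA per cell cannot be told apart. The members with an unadjusted p under 0.05 were miR-155 and miR-202 lower in cocult at 1 h, and miR-146b (0.62 ± 0.23) and miR-503-5p higher at 22 h. miR-21-3p and miR-212 were at 0 in all 18 libraries. miR-202, an miRNA enriched in the gonads, was present in every library and was at −0.69 ± 0.28 at 1 h (adjusted p = 0.999). Among 9 blood and immune miRNAs only miR-150 passed the filter (0.01 ± 0.16), and the red cell miR-451 had 2 counts in CBX and 2 in cocult. Among 8 muscle miRNAs only miR-206 passed. miR-133b, miR-133c, miR-208a and miR-208b had no count in the 18 libraries, and miR-1 summed to 16 counts in CBX and 22 in cocult.

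miR-21-5p, the cumulus-linked miRNA that the study followed with a labelled mimic, did not differ detectably between the groups. It measured 6458, 2826 and 3519 CPM in CBX and 4974, 4312 and 3421 in cocult at 1 h, and 5904, 3168 and 3524 against 5609.9, 2882 and 2210.4 at 6 h. At 22 h, it measured 4621, 3043 and 4669 CPM in CBX and 6225, 4389 and 4635 in cocult, below the 9399, 10056 and 7437 CPM of the control libraries. The average log2 fold change of miR-21-5p was 0.01 ± 0.13, with a 95% interval of −0.27 to 0.28, and at 22 h the interval was −0.19 to 0.72. The abundant miR-10b, miR-16b and miR-16a had average intervals of −0.23 to 0.05, −0.07 to 0.27 and −0.32 to 0.31. let-7a-5p was at −0.20 ± 0.14 and miR-148a at 0.14 ± 0.19. The abundant predicted entries were predicted miR-212 at 0.07 ± 0.08, predicted miR-787 at 0.22 ± 0.12, predicted miR-777 at −0.18 ± 0.11, predicted miR-322 at −0.04 ± 0.17 and predicted miR-948 at 0.08 ± 0.15, none called.

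The 20 miRNAs that the study singled out were chosen on these libraries, so their values are not independent evidence. Predicted miR-589 and predicted miR-723 were taken from its sequence list only, and the others from its comparisons among the 4 groups. All 20 were tested in the average, 7 with positive and 13 with negative values, a median of −0.31 beside 0.02 over all miRNAs tested, and none called (−0.07 beside 0.21 with the deduplicated reads). At an unadjusted p under 0.05, 8 were lower and 1 higher in cocult. Those not described above were predicted miR-432 at −0.80 ± 0.35 and predicted miR-879 at −0.74 ± 0.26. For both, the CBX library with the lowest total held the highest value of the CBX group at 22 h, 3691 CPM of predicted miR-432 and 1097 of predicted miR-879, and without that library's pair the averages were −0.43 (adjusted p = 0.878) for predicted miR-432 and −0.52 (adjusted p = 0.64) for predicted miR-879. The others, predicted miR-137, predicted miR-318-0, predicted miR-321, predicted miR-559, predicted miR-589, predicted miR-672 and predicted miR-723, ranged from −0.36 for predicted miR-672 to 0.16 for predicted miR-559.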

How the data were processed

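Small RNA was prepared with the miRNeasy and QIAseq miRNA kits, whose unique molecular identifiers (UMIs) mark single molecules. The authors deposited count tables of known and predicted miRNAs, made with the miRPro pipeline from deduplicated reads aligned to the bovine build ARS-UCD1.2. FastQC 0.11.9 and UMI-tools 1.1.2 are named in their processing notes. The deposited counts were used as they stand, with known and predicted miRNAs joined into 1 table of 1995 entries. Counting error alone limits a library with few counts, as given by its floor of 3 counts.

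Libraries were grouped by their titles. Each time was fitted with edgeR 4.0.16 (R 4.3.3, limma 3.58.1; glmQLFit and glmQLFTest, legacy option, filterByExpr with a minimum count of 10 and total of 15, TMM) with the replicate number as a block, and the 18 libraries together with 9 pair blocks for the average and for the group by time terms. p-values were adjusted by Benjamini-Hochberg over all miRNAs tested, and called means an adjusted p under 0.05 and a log2 fold change of at least 1 in size (for the difference between times, a range of at least 1). The 95% intervals come from the same fits. The replicate number was taken to stand for the ovary pool. Deviations of same-numbered libraries from their group means correlated at 0.147 to 0.64 in the 9 pairs (log2 of CPM + 10). No such values are given for differently numbered libraries, so the pairing is an assumption. Replicates of 1 group differed by 4.68 to 14.3 times the sampling noise (chi-square per degree of freedom), so none was a repeat deposit. The alternatives included DESeq2 1.42.0, other size factors and filters, and left-out libraries. The scripts were tested on simulated data. Library measures and tables used Python 3.11.15.

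The miRNAs named were those called, the 5 with the smallest p in each direction at each time, the 8 in the average, those with 1 sign in 9 of 9 pairs, the 3 smallest for the difference between times, 2 per list, the 20 of the study and the 5 most abundant known and predicted ones. Other names were chosen after their values were seen. The members and lists were chosen with earlier results of these data known.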

Additional observations from a re-analysis of the deposited data

How the results depend on the processing

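At 1 h (0 called), library sizes from the deduplicated reads gave 2 calls, no low-count filter 2, a mean of at least 20 counts 2, and DESeq2, the robust option and identical entries kept once 1 each, with predicted miR-79 among them each time. At 6 h (0 called), no low-count filter gave 1 call and a fit over all 36 libraries 2. At 22 h (0 called), DESeq2 gave 4, known and predicted miRNAs apart 4 and the fit over 36 libraries 6. In the average (1 called), DESeq2 gave 3, the fit over 36 libraries 3, no low-count filter 2, a mean of at least 20 counts 0, known and predicted apart 0, and leaving out the 6 h libraries 0. For the difference between times (0 called), no low-count filter gave 3 and known and predicted apart 2.

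With replicates left out in turn the calls were 0 to 3 at 1 h (3 without replicate 3), 0 to 2 at 6 h (2 without replicate 3), 0 to 14 at 22 h (14 without replicate 2, 4 without replicate 1), 0 to 1 in the average (0 without replicate 1 or 3) and 0 for the difference between times. The cause of these shifts was not tested.

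Without the replicate block the average had 0 calls, and a replicate block of 3 numbers shared by the times gave 2 (predicted miR-623 and predicted miR-746). The pairing changed no other count. Counts of miRNAs with 1 sign at the 3 times, recomputed by a choice made after seeing the data, ran from 22 to 153 for higher and from 20 to 150 for lower, the largest without a filter. Of the alternative values of single miRNAs and of these sign counts, 1470 kept direction and side of the threshold, 41 passed it newly, 2 lost it, 8 sign counts moved and 71 values changed sign. Small totals limit the rest: 3 counts are 160 CPM in the CBX library with the lowest total.

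The values that changed sign were all averages over the times of miRNAs that were not called, and none passed the threshold after the change. With DESeq2 the averages were −0.0081 for miR-150, −0.0063 for miR-2284x and −0.011 for miR-21-5p. With RLE size factors the averages were −0.0081 for miR-150, −0.0049 for miR-2284x and −0.011 for miR-21-5p. In the fit over 36 libraries the average was −0.00094 for miR-21-5p. With identical entries kept once the average was 0.0041 for miR-16a. With known and predicted miRNAs fitted apart the average was 0.014 for miR-16a. With library sizes from the deduplicated reads the averages were 0.12 for miR-10b, 0.010 for miR-31, 0.18 for predicted miR-723, 0.010 for let-7a-5p, 0.20 for miR-16a, 0.024 for predicted miR-777 and 0.16 for predicted miR-322. With no low-count filter the average was 0.00018 for miR-16a. Without the replicate block the averages were 0.13 for miR-206, −0.021 for predicted miR-137 and −0.0046 for miR-21-5p. With the replicate block of 3 shared numbers the average was 0.00040 for miR-206. Without the 1 h libraries the average was −0.011 for miR-21-5p. Without the 22 h libraries the averages were −0.011 for miR-30a-5p, −0.025 for miR-16b, −0.035 for miR-26b, −0.047 for miR-27b, 1.12 for miR-206, −0.026 for miR-2285bf, −0.078 for miR-2284x, −0.039 for predicted miR-321, −0.16 for predicted miR-559, −0.091 for predicted miR-906, −0.14 for miR-21-5p, −0.072 for miR-148a and −0.11 for predicted miR-948. Without the 6 h libraries the averages were 0.018 for miR-200a, −0.038 for miR-150, −0.079 for predicted miR-137, 0.084 for miR-16a and 0.095 for predicted miR-322. Without the pair of the library with the lowest total the averages were −0.028 for miR-150, −0.010 for miR-2285bf, −0.016 for miR-2284x, −0.076 for predicted miR-321, −0.087 for predicted miR-559, 0.078 for predicted miR-672, 0.011 for predicted miR-723, −0.033 for miR-21-5p, 0.021 for predicted miR-322 and −0.059 for predicted miR-948. With replicates left out in turn the averages ran from −0.16 to 0.35 for miR-148a, −0.093 to 0.058 for miR-150, −0.11 to 0.32 for miR-152, −0.017 to 0.45 for miR-15a, −0.17 to 0.055 for miR-16a, −1.29 to 0.10 for miR-206, −0.15 to 0.11 for miR-21-5p, −0.12 to 0.052 for miR-2284x, −0.016 to 0.21 for miR-2285bf, −0.048 to 0.091 for miR-26b, −0.017 to 0.16 for miR-27b, −0.16 to 0.56 for predicted miR-137, −0.32 to 0.62 for predicted miR-321, −0.20 to 0.10 for predicted miR-322, −0.068 to 0.34 for predicted miR-559, −0.042 to 0.12 for predicted miR-589, −0.74 to 0.24 for predicted miR-672, −0.11 to 0.044 for predicted miR-723 and −0.040 to 0.16 for predicted miR-948. The cause of these changes was not tested.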

Other observations

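The muscle miRNA miR-206 was high in replicate 2 of the control group at each time. The control group enters the levels set beside CBX and cocult, the scaling of CPM values and the fit over 36 libraries, but not the main fits. The replicate 2 control libraries held 4666 CPM at 1 h, 12275 at 6 h and 2402 at 22 h, whereas replicate 3 of the control group had 0, 0 and 10.4 CPM. miR-184 in replicate 2 of the control group measured 3058, 11570.5 and 2835 CPM at 1, 6 and 22 h, against 196, 309 and 1205 CPM in replicate 3. miR-1, another muscle miRNA, had 6, 4 and 0 counts in the control libraries at 1 h, 0, 5 and 6 at 6 h and 18, 3 and 3 at 22 h. These values were picked after the data were seen.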
